A study of Mus musculus with 8 samples.

Results

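The genes followed here, 10 in number, encode Siglecs and other inhibitory receptors of immune cells, with 1 ligand, and were read in microglia of the demyelinated mouse corpus callosum: Cd33, Cd22, Siglece, Siglec1, Siglecg, Sirpa, Cd47, Cd200r1, Lair1 and Pilra. They were taken by gene symbol, not by a cut on their values, though earlier results of these data were known. All 10 were found once each among the 46983 genes of the deposited table. Total RNA was sequenced in 8 libraries, 4 named WT and 4 named Qk-KO, numbered 1 to 4 in each group. All mice were of an FvB/C57BL6 hybrid background and carried Cx3cr1-CreER, a Cre recombinase that tamoxifen activates and that is made in cells expressing Cx3cr1, such as microglia and other macrophages. Per the labels, Qk-KO mice had both Qk alleles flanked by loxP sites (QKLoxP/LoxP) and WT mice had 1 (QKLoxP/+), so WT mice could also lose 1 copy. Mice of both groups received tamoxifen at 8 weeks of age and then a diet with 0.2% cuprizone, which chelates copper, kills oligodendrocytes and so removes myelin, for 6 weeks. No mouse on a normal diet or without the Cre recombinase was analysed here. The labels do not say whether a library was 1 animal or a pool, so p-values cover no more than the spread between libraries, and part of it may be technical.

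The genotype field of the labels contradicts the name of 4 libraries: it gives 2 flanked alleles for named WT 2 and 3 and 1 flanked allele for named Qk-KO 1 and 3. Each combination of name and field therefore holds 2 libraries. Libraries are called by their names below, differences are named Qk-KO minus named WT unless the genotype field is stated, and none is assigned to a genotype. Qk, the targeted gene, ranged from 15.37 to 15.50 in named WT and from 15.29 to 15.69 for named Qk-KO on the regularized log2 scale. It therefore did not separate the names. By genotype field Qk ranged from 15.37 to 15.69 with 1 flanked allele and from 15.29 to 15.41 with 2, again with overlap. A value per gene can include exons outside the deleted part. Rough totals of reads on genes ranged from 43.9 to 69.7 M, and the size factors were 1.05 to 1.26 in named WT and 0.753 to 0.997 for named Qk-KO. All 11 microglia markers were detected. Csf1r, the receptor for the growth factors that keep microglia alive, stood at 5878 CPM, the usual read count scaled to a common library total.

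Siglecs are membrane lectins that bind sialic acids, the sugars that cap glycans on an animal's own cells. Many of them, like Sirpa, Lair1 and Pilra, carry tyrosine motifs in the cytoplasmic tail that recruit phosphatases and dampen activating signals. On microglia and macrophages such receptors restrain phagocytosis and inflammatory activation, and Cd47 is the "do not eat me" ligand of Sirpa. Cd200r1 binds Cd200 on neurons, Lair1 binds collagens and the complement component C1q, and Pilra binds sialylated proteins.

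Per length of exon, Sirpa was by far the most abundant of the 10 genes and Siglecg the least. Levels were set on CPM per kilobase of exon, averaged over the 8 libraries. Sirpa, the receptor for Cd47, stood at 551 CPM per kb and ranked 28 of all genes by CPM. Lair1, the collagen receptor, followed at 46.2. Cd22 and Cd33, at 26.7 and 25.5, could not be ordered, since their ranges over the libraries overlapped. Siglec1, the sialoadhesin of macrophages, stood at 15.1. The next neighbours were Cd47 at 7.01, Cd200r1 at 4.89, Siglece at 4.45 and Pilra at 3.07, and neighbours among these 4 overlapped in range over the libraries. Siglecg, at 0.163 CPM per kb and 0.783 CPM, rested on roughly 16.1 to 83.8 reads per library, against 264 or more for every other member. Exonic length was that of all annotated exons of a gene together, so levels per kb are approximate.

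**Figure D1:**
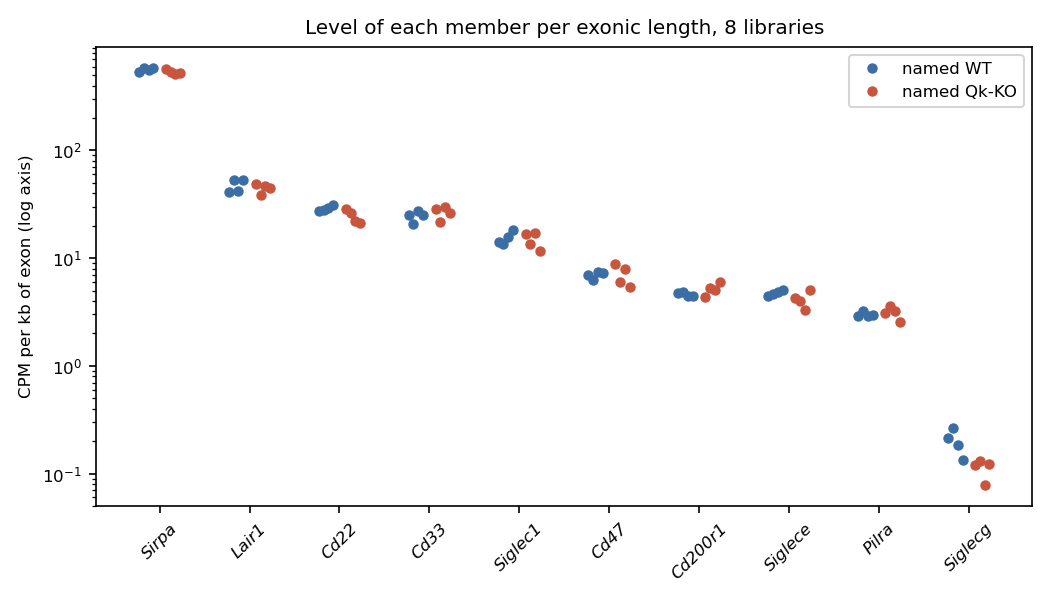
Level of each of the 10 genes in CPM per kb of exon on a log axis, 1 point per library, named WT and named Qk-KO side by side. Sirpa (551 on average) lies above all others and Siglecg (0.163) below all others in every library.

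Quaking, the protein made from Qk, binds RNA at the letters ACTAAC or ACTAAT (written with T for U), best with TAAC or TAAT nearby. These letters were searched on the sense strand of 1 representative GENCODE M21 transcript per member. Of the 10, 5 held at least 1 match, against 41.85% of the 21866 representative transcripts of protein-coding genes. Cd22 and Siglece held 2 core matches each, where 54.9% and 31.0% of transcripts within 20% of their length held at least 1. The core letters together with TAAC or TAAT 1 to 20 bases away, as a separate copy outside the core, occurred in these 2 only. Such pairs were present in 20.5% of protein-coding transcripts within 20% of the length of Cd22 and in 7.78% of those within 20% of the length of Siglece. The match of Cd22 lay in the 3′ UTR and that of Siglece in the coding sequence. Cd33 and Sirpa each held 1 core match in the 3′ UTR, where 67.6% and 54.9% of transcripts of similar length held at least 1 anywhere, and Lair1 held 1 in the coding sequence (38.4%). No match was found in Siglec1, Siglecg, Cd47, Cd200r1 or Pilra. Of transcripts of similar length, 71.8%, 39.4%, 22.2%, 31.5% and 39.45% held at least 1, in that order. The lack of a match says only that these letters are not in the transcript searched. For Cd47 that transcript was a short one of 1316 bases. The 30-base stretches are shown because the study targeted the gene of the protein known for these letters, with the matching letters in capitals, and a match is a description, not a shown binding site.
Cd22, 3′ UTR, transcript bases 3262 to 3291: tcctgttgTAATcgtcACTAACacttcttc
Siglece, coding, transcript bases 457 to 486: tggttgTAACagccctcACTAACacccccc
Cd33, 3′ UTR, transcript bases 2119 to 2148: gaagagagtcacACTAACaataggaaaatc
Sirpa, 3′ UTR, transcript bases 2535 to 2564: cctccagctagcACTAACtcagcagcatcg
Lair1, coding, transcript bases 634 to 663: ctaaatctagctACTAATggcctggagatg

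By sample name, no member passed the test in limma or in the authors' deposited table, and only Siglecg had no overlap between the named groups. In limma 0 of the 10 had an adjusted p under 0.05, against 0.00444% of the 22546 genes tested, and 0 of the 10 in the authors' deposited table, against 1.22% of 14150 genes, 0.551% higher and 0.671% lower. At an unadjusted p under 0.05, 2 of 10 were found in limma (Siglecg and Cd22), with a background of 8.26%, and the same number in the authors' deposited table, with a background of 10.7%. The share of all tested genes without overlap between the named groups was 5.73%. The median difference of the 10 was -0.068 beside -0.0044 over all genes tested, with 7 of 10 below 0; with each library centred on its median, it was 0.0091 beside 0.072 over all genes, with 4 of 10 below 0. In bulk RNA, fewer cells of a type and less RNA per cell cannot be told apart in any of these values.

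**Figure D2:**
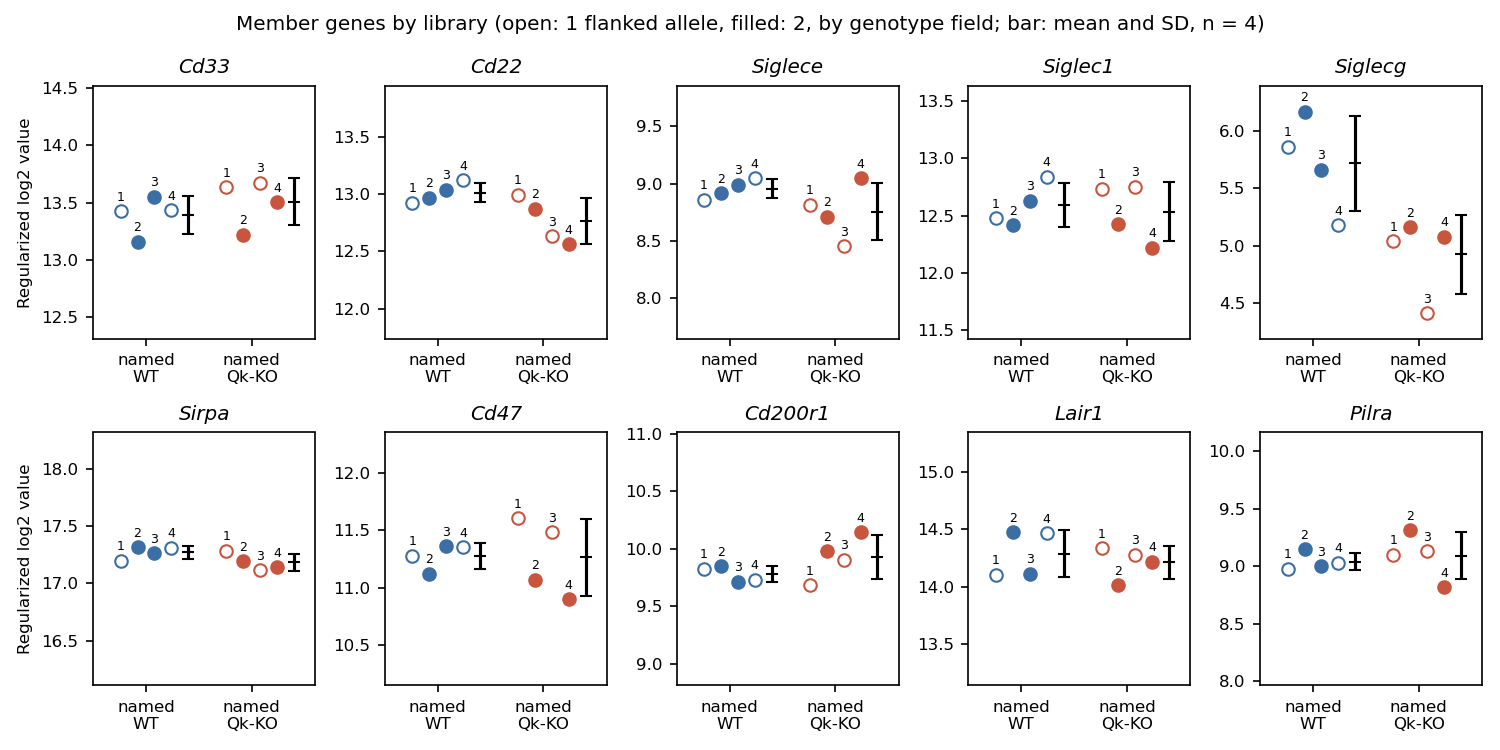
Regularized log2 value of each member in the 8 libraries, numbered by replicate, on axes of equal span, with the mean and SD of each named group (n = 4). Open points had 1 flanked allele and filled points 2 by the genotype field. The named groups overlap in every panel except that of Siglecg, where named WT 4 (5.18) and named Qk-KO 2 (5.16) nearly meet.

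Among the Siglecs, Siglecg (ENSMUSG00000030468.12, chromosome 7, 43408204 to 43418358, plus strand, GRCm38) had the difference of greatest size. It is best known as an inhibitory receptor of B cells that also binds Cd24. Its regularized log2 values were 5.86, 6.17, 5.66 and 5.18 for named WT 1 to 4 and 5.04, 5.16, 4.41 and 5.08 for named Qk-KO 1 to 4. All 4 named WT libraries lay above all 4 named Qk-KO libraries, although the gap between named WT 4 and named Qk-KO 2 was small. Siglecg was 5.72 ± 0.41 in named WT and 4.92 ± 0.34 for named Qk-KO (n = 4 each, SD). The limma difference was -0.80 ± 0.26 (SE; 95% interval -1.37 to -0.22), 1.74-fold lower, and it was not called (adjusted p = 0.477). The authors' deposited table gave -1.01 ± 0.35 (SE) and an adjusted p of 0.144. By genotype field the limma difference had the other sign, 0.39, with an interval from -0.38 to 1.16.

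Cd22 (chromosome 7, 30865402 to 30880342, minus strand, GRCm38) is a Siglec best known from B cells that has also been described as a brake on phagocytosis in microglia. Its values were 12.92, 12.97, 13.04 and 13.12 for named WT 1 to 4 and 12.996, 12.87, 12.63 and 12.56 for named Qk-KO 1 to 4. Named Qk-KO 2, 3 and 4 lay below the whole named WT range, while named Qk-KO 1 lay within it. Limma gave a difference of -0.25 ± 0.10 (SE; 95% interval -0.46 to -0.03), 1.19-fold lower and not called (unadjusted p = 0.0301, adjusted p = 0.561). By genotype field it was -0.06, with an interval from -0.34 to 0.23. The antisense transcript Gm29439 shares 479 exonic bases with Cd22 and was listed at 0.0161 CPM.

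Cd33 (chromosome 7, 43524216 to 43544428, minus strand), the founding member of the CD33-related Siglecs, showed the opposite sign by name and no separation. Its values were 13.42, 13.16, 13.55 and 13.43 for named WT 1 to 4 and 13.63, 13.22, 13.67 and 13.50 for named Qk-KO 1 to 4. Library 2 was the lowest of its named group in both groups. In limma the difference was 0.12 ± 0.11 (SE; 95% interval -0.14 to 0.37, adjusted p = 0.794). By genotype field it was -0.18, with an interval from -0.42 to 0.05.

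Siglece (chromosome 7, 43651070 to 43660161, minus strand), a CD33-related Siglec of neutrophils, monocytes and microglia, was tight in named WT and spread in named Qk-KO. The values were 8.86, 8.92, 8.99 and 9.05 for named WT 1 to 4, and 8.82, 8.71, 8.45 and 9.04 for named Qk-KO 1 to 4. Named Qk-KO 1, 2 and 3 lay below every named WT library, and named Qk-KO 4 lay at the top of the named WT range. Limma gave a difference of -0.20 ± 0.12 (SE; 95% interval -0.48 to 0.08, adjusted p = 0.689), and one of 0.12 by genotype field (-0.18 to 0.43).

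Siglec1 (chromosome 2, 131069220 to 131086765, minus strand), a long Siglec that lacks an inhibitory motif and serves macrophages in adhesion and uptake, had a smaller unadjusted p by genotype field than by name. It stood at 12.48, 12.42, 12.63 and 12.84 for named WT 1 to 4 and at 12.73, 12.43, 12.75 and 12.22 for named Qk-KO 1 to 4. By name the limma difference was -0.06 ± 0.14 (SE; 95% interval -0.36 to 0.25, adjusted p = 0.921), and its sign turned with each library centred on its median (0.018) and without named WT 4 (0.024) or named Qk-KO 4 (0.046). By genotype field, the libraries with 2 flanked alleles were 0.28 below those with 1 (95% interval -0.51 to -0.05, unadjusted p = 0.0226, limma adjusted p = 0.9995). The 2 genotype-field groups overlapped, since named WT 3, with 2 alleles, lay above named WT 1, with 1.

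Sirpa and its ligand Cd47 behaved differently in spread. Sirpa (chromosome 2, 129592835 to 129632228, plus strand) is an inhibitory receptor of myeloid cells and neurons. Its values were 17.20, 17.31, 17.26 and 17.31 for named WT 1 to 4 and 17.28, 17.19, 17.11 and 17.14 for named Qk-KO 1 to 4, a range of 0.20 over all 8. Named Qk-KO 2, 3 and 4 lay just below the lowest named WT library and named Qk-KO 1 lay within the named WT range. The limma difference was -0.09 ± 0.05 (SE), and its 95% interval, -0.21 to 0.04, bounds the fold between 0.865 and 1.03 (adjusted p = 0.692). The near relatives Sirpb1a, Sirpb1b and Sirpb1c, whose reads could be confused with those of Sirpa, stood at 0.521, 0.874 and 1.28 CPM, against 2704 CPM for Sirpa. The SD of Sirpa over the 8 libraries was 0.077, at the 16.7 percentile of 24 genes within 0.5 of its level.

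Cd47 (chromosome 16, 49800533 to 49915010, plus strand), a membrane protein of nearly all cells, had the widest range of the members above 1 CPM, at 0.71. Its values were 11.28, 11.12, 11.36 and 11.35 for named WT 1 to 4 and 11.60, 11.07, 11.48 and 10.90 for named Qk-KO 1 to 4. The named Qk-KO libraries held both the 2 highest and the 2 lowest values of the 8. Over the libraries its SD of 0.23 stood at the 88.1 percentile of 2121 genes within 0.5 of its level, with Siglec1, Cd22 and Cd33 at the 86.6, 85.4 and 81.0 percentile of theirs. By name the limma difference was -0.015 ± 0.15 (SE; interval -0.35 to 0.32, adjusted p = 0.982), and the sign turned with median centring (0.062), in the authors' deposited table (0.011) and without named WT 3 (0.014), WT 4 (0.0095), Qk-KO 2 (0.050) or Qk-KO 4 (0.11). By genotype field, Cd47 was 0.32 lower in libraries with 2 flanked alleles than in those with 1 (95% interval -0.56 to -0.08, unadjusted p = 0.0150, limma adjusted p = 0.9995). Within named Qk-KO, both libraries with 1 flanked allele lay above both with 2. Within named WT this did not hold, because named WT 3, with 2 alleles, had the highest value.

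The receptors for Cd200, collagen and sialylated proteins were not separated by name. Cd200r1 (chromosome 16, 44765736 to 44794978, plus strand) stood at 9.83, 9.85, 9.71 and 9.73 for named WT 1 to 4 and at 9.68, 9.98, 9.91 and 10.14 for named Qk-KO 1 to 4. Named Qk-KO 2, 3 and 4 lay above the named WT range and named Qk-KO 1 below it. In limma Cd200r1 differed by 0.15 ± 0.10 (SE; 95% interval -0.07 to 0.37, adjusted p = 0.698). The activating relative Cd200r4, at 19.0 CPM beside 16.4 CPM for Cd200r1, had a difference of 0.17 (limma, adjusted p = 0.632), and reads of these near copies could be split between them.

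Lair1 (chromosome 7, 4003402 to 4063204, minus strand) formed 2 levels within named WT, with 14.11 in libraries 1 and 3 and 14.47 in libraries 2 and 4. In named Qk-KO 1 to 4 it stood at 14.34, 14.01, 14.28 and 14.22. The named Qk-KO values lay between these levels, except named Qk-KO 2, which was the lowest of all. In limma Lair1 differed by -0.08 ± 0.11 (SE; 95% interval -0.32 to 0.17, adjusted p = 0.864), and it came to 0.00014 with median centring.

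Pilra (chromosome 5, 137821952 to 137836281, minus strand) was 8.98, 9.15, 9.001 and 9.03 for named WT 1 to 4 and 9.10, 9.31, 9.13 and 8.82 for named Qk-KO 1 to 4. Named Qk-KO held both the highest and the lowest library. In limma Pilra differed by 0.05 ± 0.11 (SE; 95% interval -0.19 to 0.30, adjusted p = 0.917), and it was -0.023 without named Qk-KO 2. Zcwpw1 on the opposite strand shares 468 exonic bases with Pilra and stood at 17.3 CPM beside 9.48 for Pilra. The sources used here do not say whether the counting used strand, so part of the Pilra signal is uncertain. Its activating relatives Pilrb1 and Pilrb2 stood at 0.882 and 0.831 CPM.

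Grouped by the genotype field, the members also passed no test over all genes. In limma 0 of 10 were called, as for all genes tested (0%), and 2 of 10, Cd47 and Siglec1, had an unadjusted p under 0.05 against a background of 2.67%. No member was without overlap between the 2 genotype-field groups, against 1.85% of all genes tested. Cd33, Siglece, Siglecg and Sirpa had opposite signs by name and by field in limma and the other 6 the same sign, but Siglec1, Cd47 and Lair1 by name and Sirpa and Pilra by field changed sign with median centring.

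**Figure D3:**
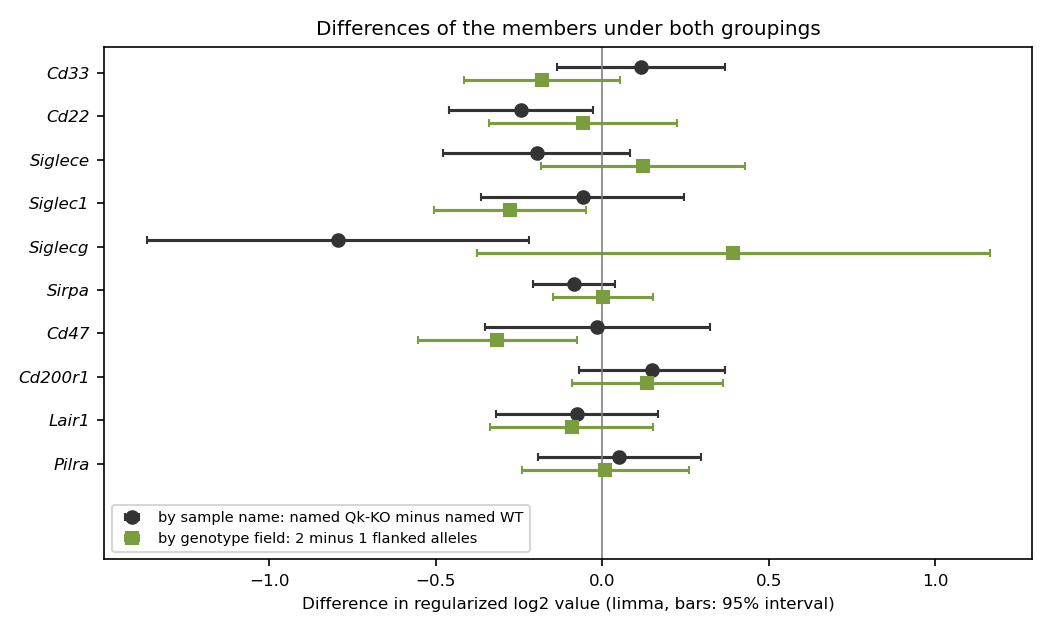
Difference of each member in regularized log2 value with its 95% interval from limma, by sample name (circles) and by genotype field (squares). By name only the intervals of Cd22 (-0.46 to -0.03) and Siglecg (-1.37 to -0.22) leave out 0, and by genotype field only those of Siglec1 and Cd47, before any adjustment over genes.

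Over the 8 libraries, 6 of 45 pairs of members had an unadjusted exact permutation p under 0.05 for Pearson r. No pair passed the adjustment over all 45 pairs. Depth, named group and the marker levels given below also differed between these libraries. Sirpa and Cd22 had Pearson r = 0.894 (exact permutation p = 0.00203, adjusted p = 0.0915) and Spearman rho = 0.810 (exact permutation p = 0.0218, adjusted p = 0.327). Without the 2 libraries farthest from the median of Cd22, r was 0.745, and within the named groups, as deviations from their means, it was 0.828. Siglec1 and Cd47 had r = 0.887 (exact permutation p = 0.00459, adjusted p = 0.103), rho = 0.810 (p = 0.0218, exact permutation; adjusted p = 0.327), 0.947 without the 2 farthest libraries and 0.893 within the named groups. Cd200r1 ran opposite to Cd22, with r = -0.846 (exact permutation p = 0.00754, adjusted p = 0.113), rho = -0.857 (exact permutation p = 0.0107, adjusted p = 0.327), -0.787 without the 2 farthest libraries and -0.789 within the named groups. Cd200r1 also ran opposite to Cd47, Siglec1 and Sirpa, with r = -0.807, -0.773 and -0.717. Without the 2 libraries farthest from the median of Cd47, Siglec1 or Sirpa, these were -0.448, -0.481 and -0.587. The groups are too small (n = 4) for a relation within each alone.

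The genes most like the 3 members of widest range among those of at least 1 CPM were found among 13462 other genes of at least 1 CPM, as a description over 8 libraries without a test. Cd47 was closest to Ylpm1 (r = 0.975). Siglec1 was closest to Plxdc1 (r = 0.978) and Kat6b (0.928), and Siglece to Sertad3 (0.981) and Shank3 (0.976). With so many genes and 8 libraries, high values of r occur without any relation.

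Cd22 was far above the defining markers of B cells, the cells from which it is best known. Of 10 B cell markers, 7 were under 1 CPM. Ms4a1, which encodes CD20, stood at 0.0342 and Pax5, the B cell transcription factor, at 0.0368 CPM per kb, against 26.7 for Cd22. Siglecg stood at 0.163. Summed B cell markers ranged from 16.8 to 20.9 CPM in named WT and from 16.4 to 21.96 for named Qk-KO, most of it from Cd79b and Bank1 (9.54 and 5.96 CPM). Their mean log2 level was 4.87 ± 0.16 and 4.84 ± 0.12 (n = 4 each, SD; exact permutation p = 0.714), so it did not separate the names as Siglecg did. Whether B cells had a part in the Siglecg values was not tested.

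Markers of border macrophages and neutrophils were set beside Siglec1 and Siglece as a description, without a test over the libraries. Border macrophage markers were highest in named WT 2 and named Qk-KO 4, with mean log2 levels of 9.25 and 9.13, and those libraries held the 2 lowest values of Siglec1. Their summed level was 119 to 198 CPM in named WT and 127 to 191 for named Qk-KO, and Mrc1, the mannose receptor, stood at 10.2 CPM per kb beside 15.1 for Siglec1. Neutrophil markers summed to between 10.1 and 346 CPM in named WT and between 23.0 and 70.6 for named Qk-KO. The highest neutrophil mean, 9.72, was in named WT 2, where Siglece, at 8.92, lay inside the named WT range. Per kb, S100a9 and S100a8 stood at 56.9 and 21.0 CPM, above Siglece at 4.45, and Ltf and Ly6g at 3.52 and 0.265, below it. The part of border macrophages and neutrophils in the Siglec1 and Siglece values was not tested.

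The mean microglia marker level was higher in each named WT library than in any named Qk-KO library, and markers of other brain cells varied widely. The mean of the 11 microglia markers was 15.48 ± 0.10 in named WT and 15.10 ± 0.10 for named Qk-KO (n = 4 each, SD; exact permutation p = 0.0286, the smallest that 4 against 4 allows, and 0.286 adjusted over 10 lists). Summed microglia markers were 17218 to 19158 CPM in named WT and 13931 to 16358 for named Qk-KO. Astrocyte and neuron markers, cells that express Sirpa, Cd47 or Cd200, differed by -0.81 and -0.41 (exact permutation p = 0.257 and 0.314). The level of astrocyte markers was lowest in named Qk-KO 3, at 7.45, and reached 10.40 for named WT 4 and 10.41 for named Qk-KO 4. Library 4 was the highest of each named group for astrocyte, oligodendrocyte and neuron markers. Oligodendrocyte markers stood there at 8.40 (WT) and 8.43 (Qk-KO), and neuron markers at 6.15 and 6.07. Endothelial markers did not share this, with named WT 1 (10.05) and named Qk-KO 4 (10.10) the highest of their groups. Oligodendrocyte and endothelial markers differed by -0.33 and -0.50 (exact permutation p = 0.486 and 0.200), monocyte markers by -0.10 and T and NK cell markers by -0.04 (0.943 and 0.857). Of the 11 microglia markers, 10 had a negative difference, and 7 after median centring. The part of these cells in the members' values was not tested.

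**Figure D4:**
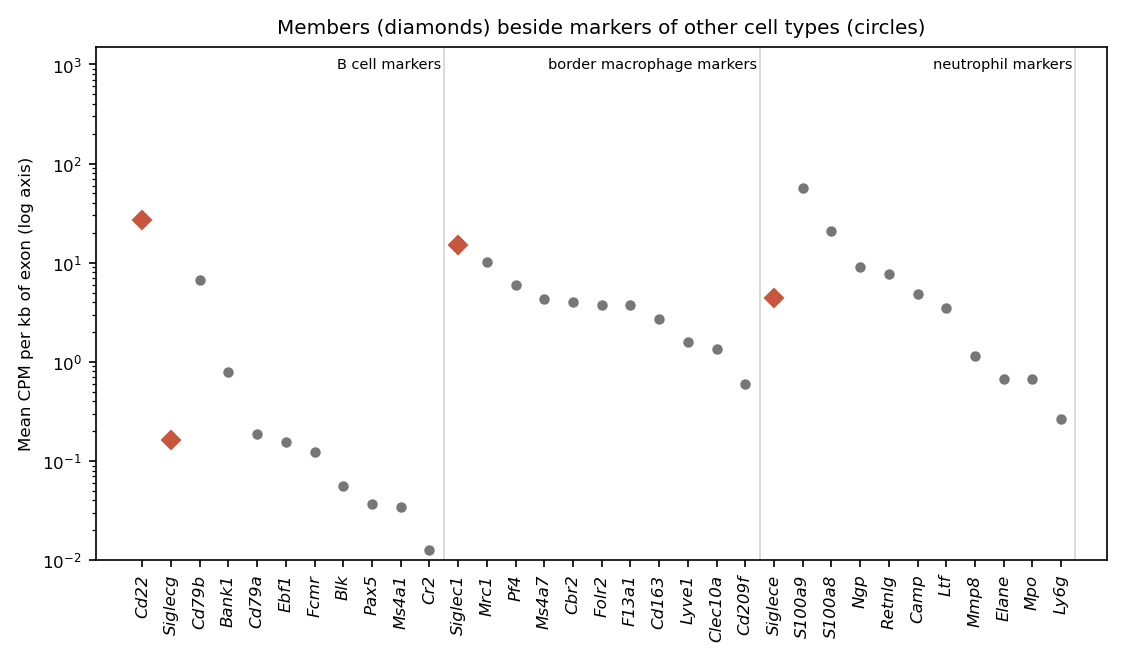
Mean CPM per kb of exon over 8 libraries on a log axis for Cd22, Siglecg, Siglec1 and Siglece (diamonds) and markers of B cells (9 of 10 drawn), border macrophages and neutrophils (circles). Cd22 (26.7) lies above all B cell markers drawn, of which Cd79b is the nearest at 6.67.

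Among genes of the same pathway, 2 of 92 were called in the authors' deposited table, against 1.22% of all its genes with an adjusted p, and none in limma. The lists were chosen with earlier results of these data known, so these shares are a description, not a test. In all, 105 genes of 6 lists beside the members were tested in limma. Of these, 13 had an unadjusted p under 0.05, against 8.26% of all genes tested. Lag3, an inhibitory receptor that binds MHC class II and is made by microglia as well as T cells, fell 1.56-fold in the authors' deposited table (-0.64 ± 0.13 on the log2 scale, SE; adjusted p = 0.000366). Its values were 14.29, 14.24, 14.38 and 14.31 for named WT 1 to 4 and 13.99, 13.73, 13.46 and 13.42 for named Qk-KO 1 to 4, with no overlap and a narrow spread in named WT. The limma adjusted p of Lag3 was 0.255, with a difference of -0.65 ± 0.12 (SE), or -0.58 with median centring. Markers of T and NK cells, which also make Lag3, differed by -0.04 and those of microglia by -0.37, and their part in the Lag3 values was not tested.

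St8sia4, which adds chains of sialic acid (polysialic acid) to glycoproteins, rose 1.40-fold in the authors' deposited table (0.49 ± 0.11 on the log2 scale, SE; adjusted p = 0.00231). It stood at 11.91, 12.001, 11.99 and 11.69 for named WT 1 to 4 and at 12.25, 12.48, 12.55 and 12.24 for named Qk-KO 1 to 4, again without overlap. The limma difference was 0.48 ± 0.09 (SE; adjusted p = 0.286), or 0.56 with median centring. It was the only one of the sialic acid list called, 1 of 25 with an adjusted p in the authors' deposited table.

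Other inhibitory receptors numbered 23 tested of 28 listed, with 1 called lower (Lag3) and 0 higher of 20 in the authors' deposited table. Their median limma difference was -0.034, and 0.042 with median centring. Lilrb4a, an inhibitory receptor of myeloid cells at 63.0 CPM per kb, differed by 0.25 (limma, adjusted p = 0.682), and the inhibitory Fc receptor Fcgr2b by -0.15 (0.735). Cd300a, which binds phosphatidylserine and phosphatidylethanolamine on dying cells, had no overlap between the named groups and a limma difference of 0.26 (adjusted p = 0.510). Clec12a, an inhibitory lectin that senses uric acid crystals, differed by 0.72, with an interval from -0.00050 to 1.44 (limma adjusted p = 0.603).

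The other Siglecs gave no call in 3 of 5 listed genes that could be tested. Siglech, a microglial Siglec that signals through the adaptor Tyrobp, stood at 69.8 CPM per kb and differed by -0.04 (limma, adjusted p = 0.960). Siglecf, the mouse counterpart of human SIGLEC8 best known from eosinophils, stood at 32.5 CPM per kb, above Cd22 and Cd33, and differed by -0.28 (limma, 95% interval -0.51 to -0.04, adjusted p = 0.542). Mag, the Siglec of myelin, differed by -0.04 (limma, adjusted p = 0.947). The median was -0.040, and 0.036 with median centring.

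Activating counterparts and adaptors also gave no call, 0 of 12 in the authors' deposited table and 0 of 14 in limma, with a median difference of 0.044. Tyrobp, the adaptor that couples activating receptors to kinases, stood at 1741 CPM per kb and differed by 0.09 (limma, adjusted p = 0.687). Trem2, a lipid receptor that signals through Tyrobp, differed by -0.02 (0.947). Fcer1g, the shared gamma chain of Fc receptors, differed by -0.16 and Cd300lb by -0.30 (limma, adjusted p = 0.561 and 0.568).

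None of the phosphatases and kinases that act below inhibitory motifs was called. All 21 were tested, 0 were called in limma or the authors' deposited table, and 0 had an unadjusted p under 0.05 in limma. Ptpn6, the main phosphatase recruited by these motifs, was 14.51 ± 0.02 in named WT and 14.50 ± 0.06 for named Qk-KO (n = 4 each, SD). Its difference was -0.017, with a 95% interval of -0.12 to 0.09. Inpp5d, a lipid phosphatase, differed by 0.02 (-0.10 to 0.15), and Socs3, a feedback inhibitor of cytokine signalling, by 0.08 with a wide interval of -0.65 to 0.80. Plcg2 differed by 0.09 and Fgr by -0.26. The median was 0.017.

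Genes for ligands of the members, Cd47 included, had a median limma difference of -0.18, and -0.10 with median centring, with 0 of 12 called in the authors' deposited table and 0 of 13 in limma. C1qa, C1qb and C1qc, the chains of the Lair1 ligand C1q, stood at 3890, 2685 and 1790 CPM per kb and differed by -0.02, -0.12 and -0.09. Col1a1, a collagen chain, differed by -0.68 at 0.128 CPM per kb, and Thbs2, a thrombospondin, by 0.53 at 0.406. Npnt, also on this list though its place as a ligand of a member is uncertain, differed by -0.24. Endothelial markers, from cells that make collagens, differed by -0.50 beside these values, and their part was not tested.

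Of the sialic acid genes, 32 of 34 were tested and 0 were called in limma. An unadjusted p under 0.05 was found for 5, against 8.26% of all genes tested. St3gal6 and St3gal2, which add sialic acid to galactose, had no overlap between the named groups and limma differences of 0.21 and -0.17 (adjusted p = 0.444 and 0.485). St6gal1, which makes the linkage that Cd22 prefers, was the most abundant of the list by CPM, at 111, and differed by -2.7e-05, with an interval of -0.13 to 0.13. St6galnac4 differed by -0.21 and the sialidase Neu1 by 0.14 (limma, adjusted p = 0.579 and 0.628). The median of the list was -0.036, and 0.040 with median centring.

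**Figure D5:**
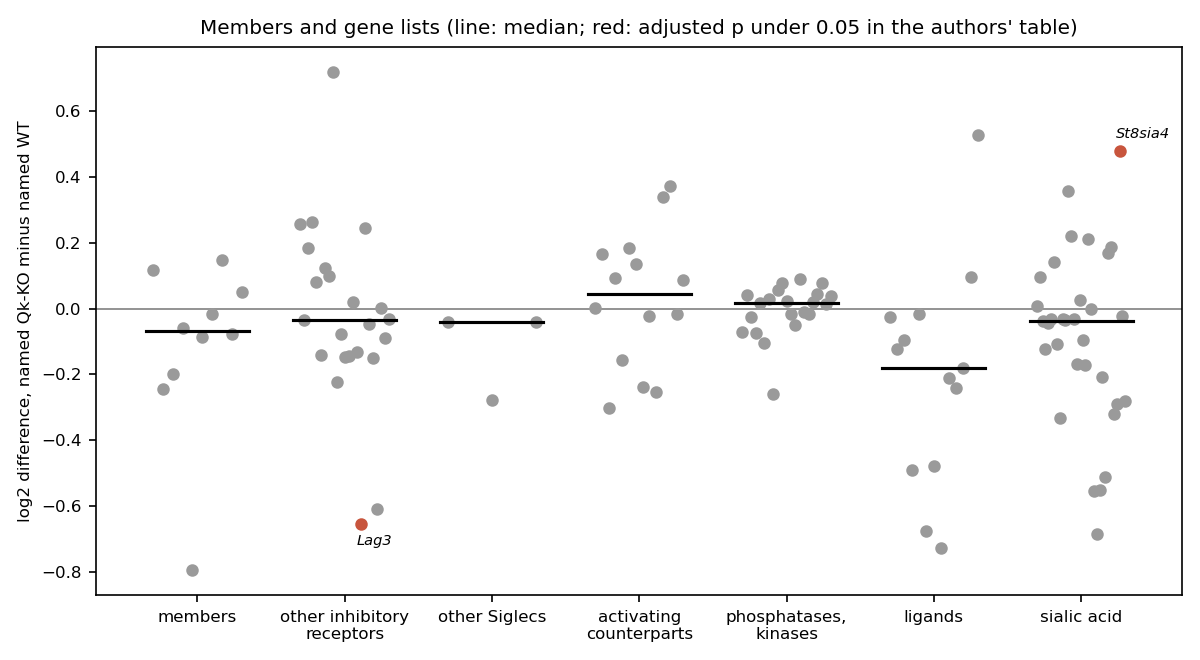
Limma difference in regularized log2 value, named Qk-KO minus named WT, for the 10 members and the tested genes of 6 lists, 1 point per gene, with the median as a line. Only Lag3 (-0.65) and St8sia4 (0.48) have an adjusted p under 0.05 in the authors' deposited table (red).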

How the data were processed

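The deposited table held, per the file headers, 8 library columns and the authors' comparison. FastQC, HISAT2, StringTie and the authors' DESeq2 are named per the submitters' processing notes, with build mm10. Their roles, versions and the annotation release are not given in the sources used here. Library values deposited by the authors are on a log2 scale. They behave as regularized logarithms, shrunken towards the gene mean at low counts, which understates differences of such genes. The authors' baseMean is a mean signal scaled for depth, and CPM is this signal divided by 56.8. The deposited columns also give a log2 fold change, 2 scores (its standard error and a test statistic) and p-values with and without adjustment. The sign of the authors' fold change followed the names (r = 0.9997 across 5232 genes with a standard error under 0.1; genotype field 0.0460). No per-library counts were used, so the count test was replaced as planned by limma 3.58.1 in R 4.3.3, with trend and robust empirical Bayes, on 22546 genes that had reads and log2 values of 0 or more in 4 or more libraries. All 10 members passed. Adjusted p-values are Benjamini-Hochberg over all genes tested, called under 0.05, and limma was tested on simulated data. Size factors came from genes with reads in 1 library, whose signal steps are worth 1 read each (whole within 1%). Read totals are rough sums of unlogged shrunken values. Correlation between libraries across tested genes was 0.985 to 0.995. Exact permutation tests were two-sided. Those of marker levels ran over 70 assignments of the libraries to the named groups, and over fewer with 1 library left out. Those of member pairs ran over all orders of the 8 libraries. Gene positions, lengths and transcripts are from GENCODE M21 (GRCm38); some identifiers differ in version from the table. Members and lists were chosen with earlier results of these data known. Named list genes were those called in either analysis, the 3 most abundant by CPM and the 3 with the smallest limma p per list. Alternatives were 2 other filters, no trend, median centring, an additive fit with both groupings, a replicate block, the authors' table and leaving out each library. A few genes that the rule named are not reported here.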

Additional observations from a re-analysis of the deposited data

Results flagged for a closer look

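Siglecg in named Qk-KO 3, at 4.41, lay apart from the other 3 named Qk-KO libraries, which stood between 5.04 and 5.16. The gap was 0.837 of the range of the 4, above Dixon's 95% critical value for 4 values. Of 20 groups examined for the 10 genes, 1 was marked, and chance marks about 1 in 20. Without that library the limma difference of Siglecg was -0.63. The size factor of named Qk-KO 3, 0.753, was the lowest of the 8, and its Siglecg value rested on roughly 16.1 reads.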

How the results depend on the processing

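No member was called under any of the alternatives run, by name or by genotype field. By name, 2 members had an unadjusted p under 0.05, with 4 when named Qk-KO 1 was left out, 3 with the replicate block and 1 without named WT 3, named WT 4 or named Qk-KO 3, with no trend or at a mean of at least 1 CPM. The listed genes beside the members had 0 calls in the limma fits run for them (additive, median centred, replicate block and each library left out) and 2 (Lag3 and St8sia4) in the authors' deposited table, which models counts. Of 10 marker lists, 1 (microglia) had an exact permutation p under 0.05; leaving out 1 library gave between 1 and 3, with astrocytes and neurons added without named Qk-KO 4, a check chosen after seeing the data. Median centring turned the sign by name of Siglec1 (0.018), Cd47 (0.062) and Lair1 (0.00014), and by genotype field of Sirpa (-0.020) and Pilra (-0.013). The authors' table turned Cd47 (0.011). Leaving out 1 library, differences by name ran from -0.13 to 0.046 for Siglec1, from -0.13 to 0.11 for Cd47 and from -0.023 to 0.14 for Pilra. By genotype field they ran from -0.15 to 0.041 for Cd22, from -0.035 to 0.031 for Sirpa and from -0.072 to 0.093 for Pilra. For Siglecg by name they ran from -0.97 to -0.63, and for Cd22 from -0.32 to -0.18. Those of Cd33 (0.039 to 0.21, lowest without named WT 2), Siglece (-0.29 to -0.096, smallest without named Qk-KO 3), Sirpa (-0.12 to -0.063), Cd200r1 (0.077 to 0.23, smallest without named Qk-KO 4) and Lair1 (-0.14 to -0.010, smallest without named Qk-KO 2) kept their sign but not their size. The cause was not tested. A replicate block changed no call of a member or listed gene. Same-numbered libraries 1 to 4 correlated at 0.046, 0.149, 0.274 and 0.458 in deviations from their group means. The threshold set for pairing was 0.1, and only the value of number 1 lay under it. Not every library correlated best with its own number. The numbers were not taken as pairs, but these values, all positive, do not settle whether the libraries were paired. The block raised listed genes at an unadjusted p under 0.05 from 13 to 25, as did leaving out named Qk-KO 4 (25). Depth limits Siglecg, the member with fewest reads, which the filter of at least 1 CPM left out.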
